A study of Mus musculus with 2 samples.

Results

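The circadian clock genes described here are 10 genes chosen by name, Per1, Per2, Cry1, Cry2, Arntl, Clock, Nr1d1, Nr1d2, Dbp and Bhlhe40, of 21938 protein-coding genes in the GENCODE vM21 annotation of the mouse build mm10. A locus here spans the gene and 10 kb beyond each end, and takes in every peak with its midpoint inside. Of the deposited peaks, 54 of 42454 in replicate 1 and 63 of 60683 in replicate 2 lay in these loci. The tissue was spleen from B6CASTF1/J females at 36 days of age, a cross whose cells carry 1 C57BL/6 and 1 CAST genome. The 2 libraries form 1 group, with no treatment, genotype or time series named, so no comparison between groups and no test was possible. The labels describe differently numbered females but give both samples 1 donor entry, so differences between replicates could be partly technical. The time of day at which the spleens were taken is not given in the sources used here. DNase-seq reads where the nuclease DNase I cuts nuclear DNA, so a peak marks accessible chromatin and not the level of a transcript.

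The mammalian clock is a transcription loop that runs in most cells, among them the lymphocytes and macrophages of the spleen. CLOCK and BMAL1, the product of Arntl, bind DNA as a dimer at E-boxes and activate the Per, Cry, Nr1d, Dbp and Bhlhe40 genes. The PER and CRY proteins return to the nucleus and inhibit that dimer. NR1D1 and NR1D2, also called REV-ERB alpha and beta, are nuclear receptors that repress Arntl through ROR elements, DBP activates genes through D-boxes, and BHLHE40 represses through E-boxes. Accessible chromatin at clock genes can change over the day in tissues sampled around the clock, so single samples of unknown hour give the state at that hour only.

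The sequences below carry the clock motifs described further on, and were read from RefSeq's GRCm38.p6 assembly, which is the build mm10 and represents C57BL/6J. The CAST allele of the hybrid is not shown. Each runs 5' to 3' on the strand of its gene, without UTR, and capitals mark E-boxes (CACGTG), the variant E-box (CACGTT on either strand), D-boxes (TTATGCAA or TTATGTAA on either strand) and ROR elements (TAGGTCA or TGGGTCA on either strand). The Per genes and Cry genes are represented by the upstream promoter of Per1 (chr11:69094883-69095182, plus strand), its second promoter in the first part of the gene (chr11:69098761-69098947, plus strand), the start-site peak of Cry1 (chr10:85185065-85185200, minus strand) and an intron of Cry2 (chr2:92423821-92424020, minus strand).
Per1 upstream promoter: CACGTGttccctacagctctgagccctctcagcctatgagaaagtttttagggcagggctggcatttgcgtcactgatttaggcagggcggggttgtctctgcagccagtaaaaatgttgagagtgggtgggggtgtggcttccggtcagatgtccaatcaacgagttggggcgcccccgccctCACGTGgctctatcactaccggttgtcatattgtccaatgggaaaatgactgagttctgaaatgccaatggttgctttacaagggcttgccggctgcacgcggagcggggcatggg
Per1 second promoter: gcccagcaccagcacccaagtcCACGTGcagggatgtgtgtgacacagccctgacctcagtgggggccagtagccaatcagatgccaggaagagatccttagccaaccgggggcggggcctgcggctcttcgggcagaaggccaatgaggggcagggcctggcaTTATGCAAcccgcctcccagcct
Cry1 start-site peak: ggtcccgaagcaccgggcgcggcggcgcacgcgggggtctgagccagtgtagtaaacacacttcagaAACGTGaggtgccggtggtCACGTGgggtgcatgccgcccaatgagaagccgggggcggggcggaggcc
Cry2 intron: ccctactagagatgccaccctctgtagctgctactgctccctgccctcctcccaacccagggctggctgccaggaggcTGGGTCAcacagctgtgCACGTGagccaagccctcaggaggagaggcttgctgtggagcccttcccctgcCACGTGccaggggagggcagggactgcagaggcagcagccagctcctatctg

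The nuclear receptor genes and Dbp are represented by the intronic peak of Nr1d1, which was the strongest of its locus (chr11:98773861-98774120, minus strand), the peak just downstream of the Nr1d2 start site (chr14:18238401-18238700, minus strand), the start-site peak of Dbp (chr7:45704788-45705087, plus strand) and a peak inside Dbp (chr7:45707681-45707860, plus strand). The last of these lies in an intron of the basic annotation, and all 180 of its bases are exonic in some transcript of the comprehensive annotation.
Nr1d1 intron: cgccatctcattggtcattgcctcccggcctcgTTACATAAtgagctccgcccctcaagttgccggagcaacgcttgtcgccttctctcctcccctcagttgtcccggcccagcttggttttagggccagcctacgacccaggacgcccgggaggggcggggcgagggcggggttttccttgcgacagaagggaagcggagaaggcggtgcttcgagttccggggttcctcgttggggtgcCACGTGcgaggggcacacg
Nr1d2 downstream of the start: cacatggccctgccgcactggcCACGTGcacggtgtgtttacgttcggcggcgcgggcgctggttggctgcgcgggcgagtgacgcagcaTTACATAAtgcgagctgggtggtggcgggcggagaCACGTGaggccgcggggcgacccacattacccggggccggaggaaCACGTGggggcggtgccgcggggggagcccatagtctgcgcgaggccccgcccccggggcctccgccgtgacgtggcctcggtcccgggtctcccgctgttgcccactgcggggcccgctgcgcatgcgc
Dbp start-site peak: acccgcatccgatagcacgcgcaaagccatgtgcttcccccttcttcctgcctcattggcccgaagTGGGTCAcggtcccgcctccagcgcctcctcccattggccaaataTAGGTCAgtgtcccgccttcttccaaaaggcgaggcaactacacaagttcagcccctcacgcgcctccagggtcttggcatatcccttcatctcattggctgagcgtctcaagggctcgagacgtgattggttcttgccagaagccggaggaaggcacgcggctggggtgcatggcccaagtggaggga
Dbp internal peak: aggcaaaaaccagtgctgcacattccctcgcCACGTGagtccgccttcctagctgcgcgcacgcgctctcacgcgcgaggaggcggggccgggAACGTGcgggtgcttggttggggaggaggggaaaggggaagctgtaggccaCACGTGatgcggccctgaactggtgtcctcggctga
The Nr1d2 stretch holds 3 E-boxes and 1 D-box in 300 bases, and the Dbp internal peak holds 2 E-boxes with 1 variant E-box between them. The Dbp start-site stretch holds 2 ROR elements and no E-box.

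All 10 clock genes had a peak within 1 kb of an annotated start site in both libraries. The background is high: 53.4% of all protein-coding genes had such a promoter peak in replicate 1, 56.9% in replicate 2 and 53.1% in both. Promoters rich in CpG are more often open, and 9 of the 10 clock genes had an observed over expected CpG content at or above the median of all genes, 0.571. Their own content ran from 0.438 at Nr1d1 to 1.01 at Cry1, with a median of 0.806. Of the 10969 genes at or above the median, 83.7% had a promoter peak in both libraries, so a count of 10 of 10 lies not far above that share. Because these genes were chosen with results of the same libraries known, the count is a description.

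The 10 promoters differed in strength. The deposited signal of a peak is the authors' own value on a scale of its library, and is used here to rank peaks within that library. Per2, Per1 and Dbp had the strongest start-site peaks, among the first 1000 peaks of either list. Clock, Nr1d1 and Bhlhe40 had start-site peaks that ranked between 6071 and 10809 in both libraries. Among the 11716 genes with a promoter peak in replicate 1, Per2 stood in the top 2.34% and Nr1d1 in the top 71.5%. Among the 12489 such genes in replicate 2, Dbp stood in the top 1.59% and Clock in the top 62.5%. As spleen is a mixed tissue, fewer cells with an open site and less opening per cell cannot be told apart at any of these peaks.

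**Figure D1:**
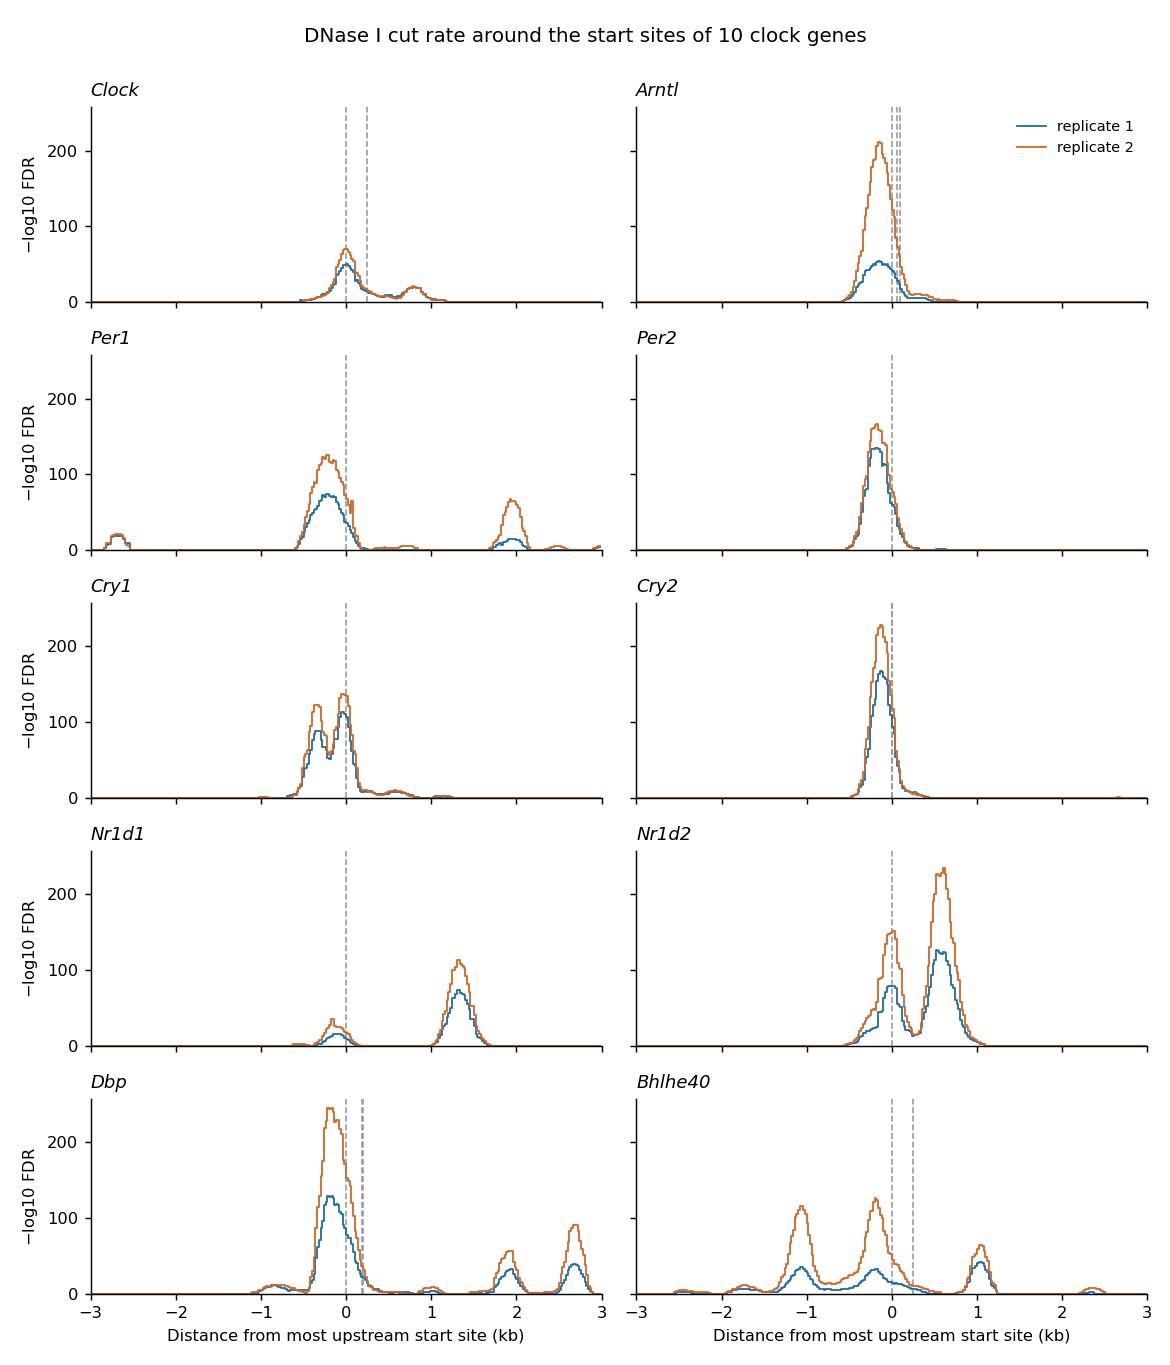
Significance of the DNase I cut rate, as -log10 of the deposited FDR, in steps of 20 bases over 3 kb to either side of the most upstream start site of each of the 10 genes, in replicate 1 (blue) and replicate 2 (orange). Dashed lines mark annotated start sites. The highest point lay upstream of the start at Per2 (134 and 166) and Cry2 (167 and 228), and 1318 and 1320 bases inside the gene at Nr1d1 (73.9 and 114).

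The activator genes Clock and Arntl had 1 or 2 promoter peaks in each library and, at Arntl, a string of weak intronic sites. Clock, on chromosome 5 from 76209868 to 76304792 on the minus strand, had 2 peaks in each library, both within 1 kb of a start site, over a gene of 94.9 kb. The first was centred 12 bases inside the gene and ranked 8603 in replicate 1 and 10107 in replicate 2. No peak lay in the rest of the gene or in either flank, which left Clock with the lowest peak density of the 10, 0.174 per 10 kb in each library. Arntl, on chromosome 7 from 113207465 to 113314126, had 6 and 7 peaks. Its strongest promoter peak was centred 155 and 145 bases upstream and ranked 7241 and 3486. The intronic peaks of Arntl, 4 in replicate 1 and 6 in replicate 2, were weak: the best of them ranked 26399 and 34447. The intronic peaks 3 kb, 61 kb, 88 kb and 105 kb from the first start site recurred in both libraries. The cut rate maximum at the Arntl promoter was 53.7 on the -log10 FDR scale in replicate 1 and 211 in replicate 2, against 50 and 70.2 at Clock. That scale grows with depth, and the order of the libraries was the same at all 10 genes.

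The Period genes, whose products carry the inhibitory arm with the cryptochromes, included Per1, whose locus held the most peaks of the 10, and Per2, the strongest clock promoter of replicate 1. Per1, on chromosome 11 from 69095217 to 69109960, held 11 peaks in replicate 1 and 14 in replicate 2, or 3.60 ± 0.611 per 10 kb (SD, n = 2). Per length, Per1 and Dbp were alike in replicate 1, at 3.17 and 3.19 per 10 kb, and Per1 was the denser in replicate 2, at 4.03 against 3.58. Its upstream promoter peak had a signal of 11.4 and rank 899 in replicate 1, and 21.5 and rank 309 in replicate 2. Inside the gene lay further start sites with open chromatin, and the peaks centred 78 and 88 bases upstream of 2 of them ranked 3636 and 3766 in replicate 1 and 3191 and 3381 in replicate 2. An intronic peak, 1963 and 1953 bases downstream of the first start site, with a signal of 5.75 and 9.14, held a CRE (TGACGTCA), the element of the cAMP-responsive factor CREB. Of the Per1 locus peaks, 1 in each library lay at the promoter of the neighbour Vamp2.

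Per2, on chromosome 1 from 91415982 to 91459324 on the minus strand, was a contrast to Per1. Its 1 start site had 1 peak, centred 176 and 156 bases upstream, with a signal of 14.1 and rank 267 in replicate 1 and a signal of 17.1 and rank 914 in replicate 2. Just 1 more peak lay within the gene, 30.5 kb from the start. The other 4 of its 6 locus peaks lay at the promoter of the neighbour Hes6, the strongest of them at rank 3150 and 1551. Without peaks at promoters of other genes, Per2 kept 2 peaks in each library and Per1 kept 10 and 13.

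The cryptochrome genes had moderately strong promoters. Cry1, on chromosome 10 from 85131700 to 85185064 on the minus strand, had 3 start-site peaks, of which the one 46 and 36 bases upstream ranked 2774 and 3735 and the one 346 and 356 bases upstream ranked 5419 and 4977. In replicate 2 the strongest peak of the Cry1 locus lay instead at the promoter of Mterf2, at rank 2907, which was rank 4703 in replicate 1. Cry2, on chromosome 2 from 92403646 to 92434043 on the minus strand, had 3 and 4 peaks. Its start-site peak, 117 bases upstream in both libraries, ranked 1566 and 1698 and hardly moved between them. The Cry2 intronic peak shown above, about 10.1 kb into the gene, was weak, at rank 38991 and 31090.

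The nuclear receptor genes had their strongest opening inside the gene rather than upstream. Nr1d1, on chromosome 11 from 98767932 to 98775333 on the minus strand, had 4 peaks in each library. The intronic peak centred 1343 bases inside the gene had a signal of 11.2 in replicate 1 and 17.2 in replicate 2, and ranked 979 and 889. The peak at the annotated start site had a signal of only 2.99 and 4.63, at ranks 10809 and 9098. Nr1d2, on chromosome 14 from 18204054 to 18239127 on the minus strand, showed a like arrangement within 1 kb. The peak 517 and 597 bases inside the gene, at ranks 2225 and 1810, stood above the peak at the start site itself, at ranks 3891 and 3322. These were the only peaks of the Nr1d2 locus in the shorter lists, and in the longer lists it had 3 and 4. Annotated start sites were taken from the basic annotation, and whether transcripts begin at the internal peaks was not tested.

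Dbp and Bhlhe40, the output and feedback transcription factor genes, are short genes with crowded loci. Dbp, on chromosome 7 from 45705088 to 45710203, had 8 and 9 peaks, or 3.38 ± 0.282 per 10 kb (SD, n = 2). Its start-site peak, 128 bases upstream, had a signal of 11.2 and rank 987 in replicate 1, and a signal of 23.1 and rank 184 in replicate 2, the best rank of any clock peak there. The internal peak with the E-boxes ranked 6075 and 3786. Of the Dbp locus peaks, 3 in each library lay at promoters of its neighbours Car11, Sphk2 and Rpl18. Bhlhe40, on chromosome 6 from 108660629 to 108666925, had 6 and 8 peaks, or 2.66 ± 0.538 per 10 kb (SD, n = 2). Openness there was spread over 3 peaks of like rank in each library: 7944, 10125 and 10319 in replicate 1, and 6071, 6998 and 10709 in replicate 2. The strongest lay 1041 bases inside the gene in replicate 1, which is 796 bases past the nearest start site, and 149 bases upstream in replicate 2.

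**Figure D2:**
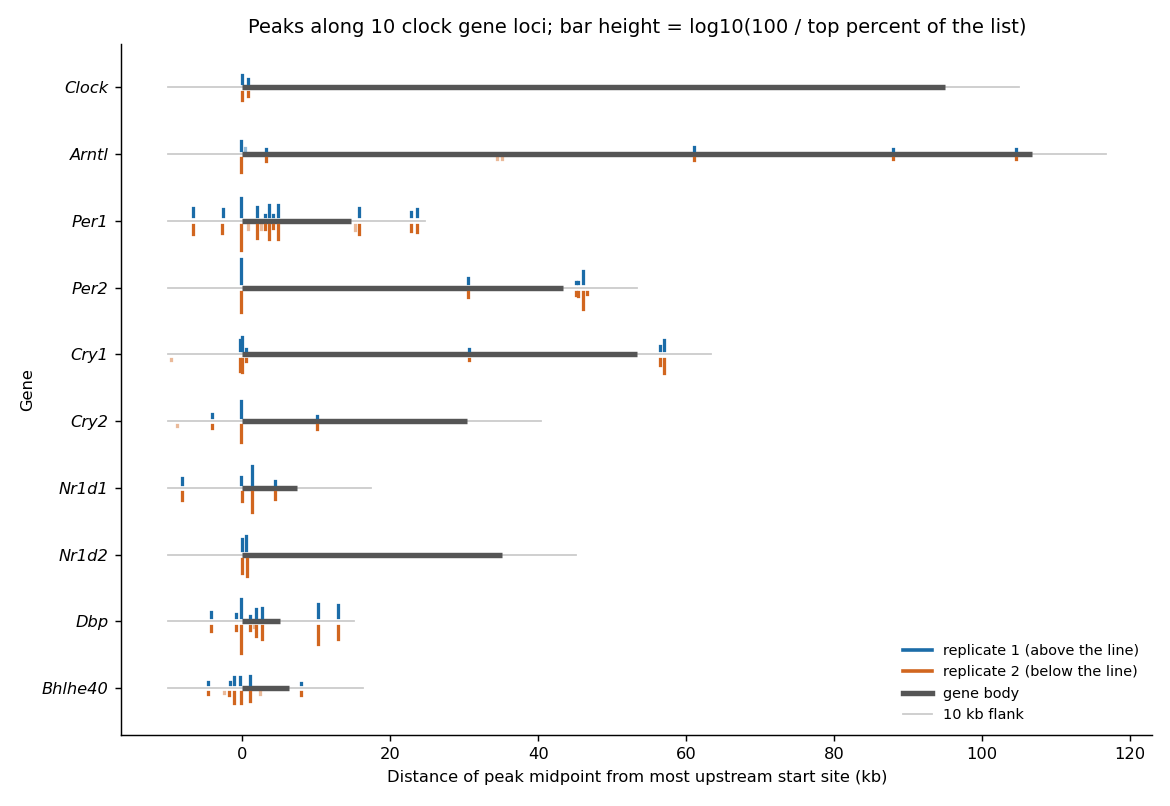
Position of each peak of the shorter lists along the 10 loci, in kb from the most upstream start site, with replicate 1 above and replicate 2 below each gene. Bar height is log10 of 100 divided by the percent of the list that ranks as high, so a peak in the top 1% is 2 times as tall as a peak in the top 10%, and pale bars are peaks without a partner in the shorter list of the other library. Tall bars stand at the start of Per1, Per2, Cry2 and Dbp and inside Nr1d1, while Clock has 2 bars over 94.9 kb.

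Over all 10 loci the number of peaks was 58.5 ± 6.36 (SD, n = 2). Own promoters held 23 peaks in each library, introns 11 and 15, and exons 1 and 2. Upstream flanks held 5 and 8, downstream flanks 4 and 5, and promoters of other genes 10 and 10. Thus 33 of 54 and 33 of 63 locus peaks lay at a promoter, beside 17350 of 42454 and 19917 of 60683 of all peaks. The loci were drawn around genes, so these shares are not like for like. Own promoter peaks had a median rank of 7944 and 6071, and intronic peaks of 26399 and 34447. The median clock locus held 0.883 peaks per 10 kb in replicate 1 and 0.951 in replicate 2, against 0.339 and 0.433 over all protein-coding genes. In replicate 1, 9 of 10 loci lay above the median of all genes, and in replicate 2, 8 of 10 did. The peak nearest to a locus edge from within lay 1070 bases inside the Per1 locus in replicate 1, at rank 8573, and 356 bases inside the Cry1 locus in replicate 2, at rank 50619. The nearest beyond an edge lay 80 and 85 bases outside the Arntl locus, at ranks 37285 and 38934. The longer lists added 13 peaks to the loci in replicate 1 and 20 in replicate 2 that the shorter lists lack. The strongest peak of a locus lay within 1 kb of an own start site in both libraries for 8 of the 10 genes. This count takes in Nr1d2, whose strongest peak was centred 517 and 597 bases inside the gene. The same share over all genes was not computed, so the count is a description. The exceptions were Nr1d1, whose strongest peak was intronic, and Cry1 in replicate 2.

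**Figure D3:**
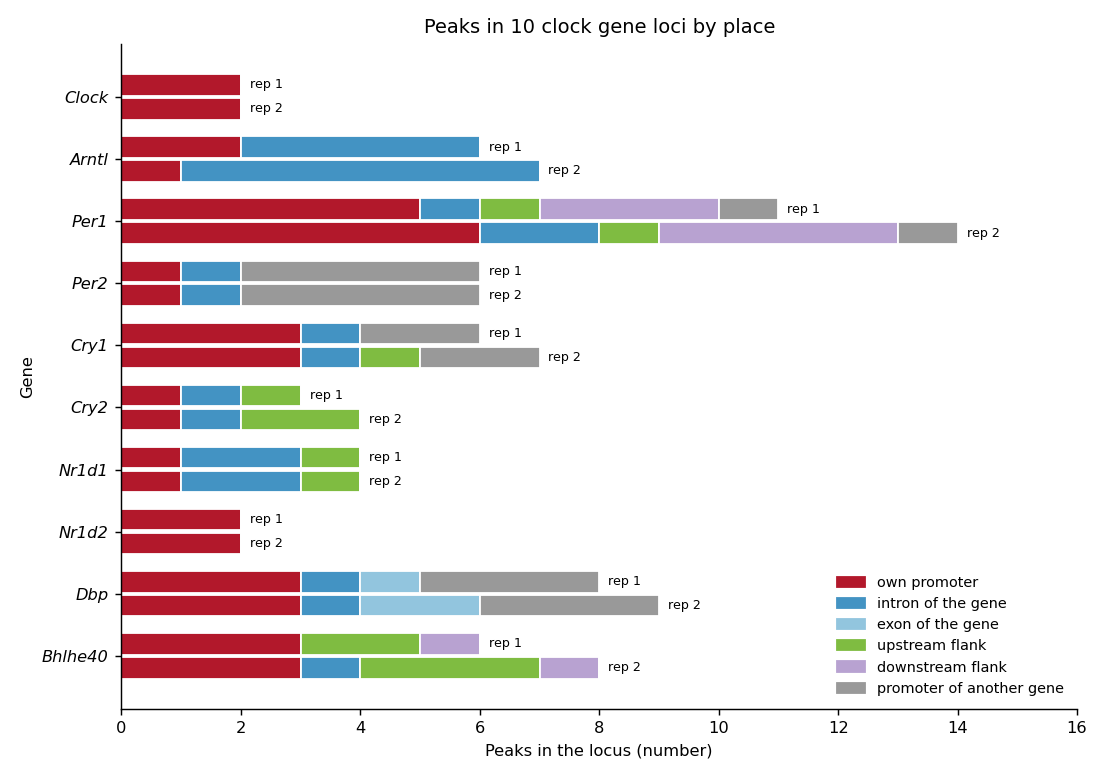
Number of peaks of the shorter lists in each of the 10 loci, in replicate 1 (upper bar) and replicate 2 (lower bar), coloured by place. Per1 has the most, 11 and 14, Clock and Nr1d2 the fewest, 2 each, and 4 of the 6 peaks of the Per2 locus lie at the promoter of another gene.

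Most of these peaks recurred. Of the 54 clock locus peaks in replicate 1, 53 overlapped a peak of replicate 2 by at least 1 base, or 98.1% (Wilson 95% interval 90.2 to 99.7), beside 93.8% of all peaks of that library. Of the 63 in replicate 2, 53 overlapped one of replicate 1, or 84.1% (73.2 to 91.1), beside 65.7% of all peaks. Between the shorter lists, the 1 peak without a partner in replicate 1 was a weak one inside Arntl. The 10 without a partner in replicate 2 lay in the loci of Per1 (3), Arntl (2), Bhlhe40 (2), Cry1, Cry2 and Dbp. Their signals were low, from 0.538 to 1.83, and all ranked at 20332 or worse. Of these 10, 6 overlapped a peak of the longer list of replicate 1, and the 3 of Per1 and the 1 of Cry2 did not. These intervals cover counting error only.

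The order of strength changed between the libraries at a few clock promoters, and at some other peaks of their loci, by more than at most peaks. For this comparison, 39415 peak pairs that matched between the libraries were ranked by signal in each library over the same pairs. The middle 90% of pairs moved between -0.63 and 0.60 on the log2 scale of position, where a negative value means a stronger place in replicate 2. Among the 3949 pairs in the top 10% of replicate 1, the range was wider, from -1.36 to 1.39. The Dbp start-site peak moved from position 982 to 184, a log2 ratio of -2.42. The upstream Per1 promoter moved from 894 to 307, or -1.54. Per2 moved the other way, from 266 to 909, or 1.77. All 3 lay outside the range of the top peaks. Arntl moved from 7183 to 3467, or -1.05, and lay outside the range of all pairs. The Bhlhe40 pair nearest upstream of its start did too, from 10218 to 6038, or -0.76. Its 2 peaks overlapped only at their edges, at chr6:108660281-108660440 in replicate 1 and chr6:108660421-108660540 in replicate 2. They may be adjacent sites and not 1 peak that shifted. Peaks at promoters of neighbours also lay outside the range of all pairs: Hes6 (-1.02), Sphk2 and Rpl18 (-1.06) and Mterf2 (-0.69). So did the internal Dbp peak (-0.68) and a peak downstream of Per1 (0.75). The Hes6 peak (position 3126 in replicate 1) and the Sphk2 and Rpl18 peak (2563) were in the top 10%, and lay inside its wider range. No such range was computed for the weaker peaks named here, Arntl among them. Shifts of the size seen at Arntl were thus not limited to clock promoters. Cry2 (0.12), Clock (0.23), the intronic Nr1d1 peak (-0.14) and the internal Nr1d2 peak (-0.30) lay within the range of all pairs. These shifts are each 1 matched pair in 2 libraries and could not be tested. Replicate 2 had the finer signal step, 0.00513 against 0.0106, and more peaks. The part of depth in these shifts was not tested.

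**Figure D4:**
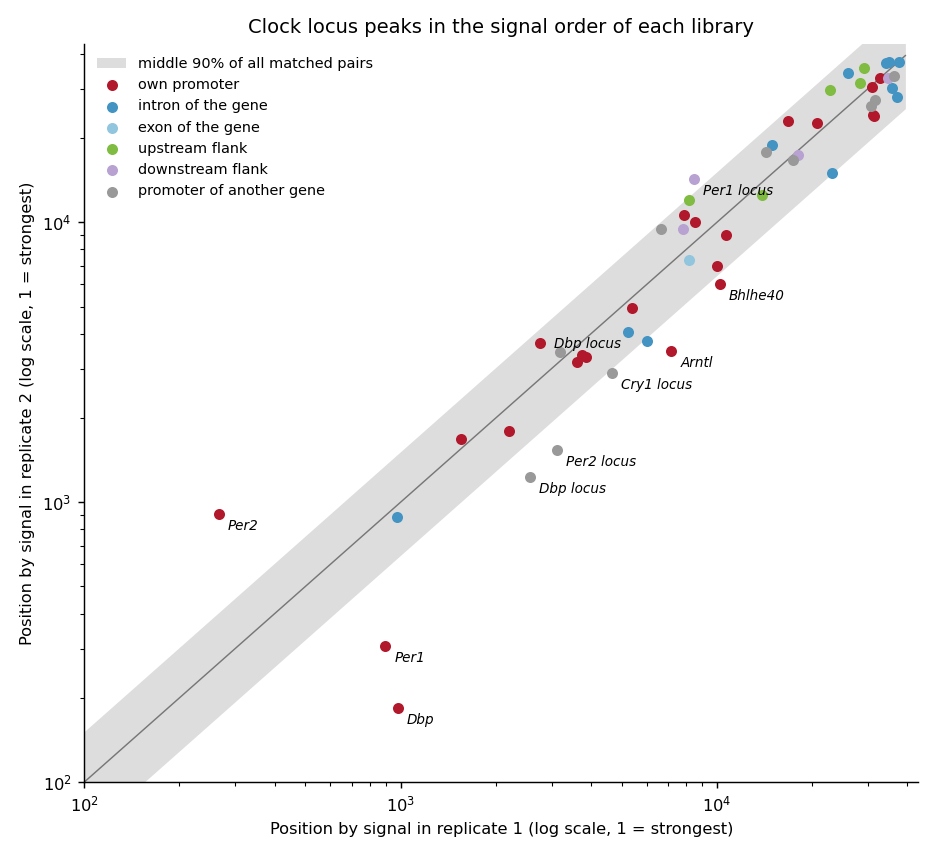
Position by signal of each clock locus peak among 39415 matched pairs, replicate 1 across and replicate 2 up, both on log axes, coloured by place. The grey band holds the middle 90% of all matched pairs. Dbp and Per1 start-site peaks lie below the band, stronger in replicate 2, and Per2 lies above it, stronger in replicate 1.

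E-boxes were held by 11 of 54 clock locus peaks in replicate 1, or 20.4% (Wilson 95% interval 11.8 to 32.9), and by 11 of 63 in replicate 2, or 17.5% (10 to 28.6). The background was 6.11% of all peaks in replicate 1 and 5.83% in replicate 2, and 8.3% and 8.21% of peaks at any promoter. Clock locus peaks were 200 bases wide at the median in each library, against 189 and 191 over all peaks, and in windows of 200 bases around the midpoints the shares were 18.5% and 14.3% beside 6.06% and 5.84%. E-boxes at these genes are the known targets of CLOCK and BMAL1, so the genes are not an independent sample for this motif. In replicate 1, 7 of the peaks with an E-box lay at own promoters, 3 in introns and 1 in an upstream flank. In replicate 2 these were 5, 5 and 1. None of the 10 peaks at promoters of other genes held one, in either library.

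The 18 distinct E-boxes lay in peaks of 8 genes, 5 of them in Per1, 3 in Nr1d2, 2 each in Cry2, Nr1d1, Dbp and Bhlhe40, and 1 each in Cry1 and Arntl. None of these letters stood in a peak of Clock or Per2. Counted with the variant E-box, 31.5% of clock locus peaks in replicate 1 and 25.4% in replicate 2 held one, beside 9.25% and 8.8% of all peaks. D-boxes stood in 5 peaks of each library, or 9.26% and 7.94%, beside 0.834% and 1.04% of all peaks. They lay in Per1, Per2, Nr1d1, Nr1d2 and Dbp, at 1 site per gene, and at Per1, Nr1d1 and Nr1d2 in the same peak as an E-box. ROR elements stood in 3 peaks of each library, of Cry2, Clock and Dbp, or 5.56% and 4.76%, beside 3.63% and 3.86%. In all, 37 matches of these motifs and the CRE were found, and 0 of them shared a base with a match of another of these motifs.

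Motifs of factors that mark blood cells were found in few clock locus peaks, at shares that counting error does not separate from those of all peaks. The PU.1 letters (GAGGAAG) stood in 7.41% and 11.1% of clock locus peaks, beside 13.6% and 15.4% of all peaks. The RUNX letters (TGTGGTT) stood in 1.85% and 1.59%, beside 5.45% and 6.34%, and the GATA letters (AGATAA) in 1.85% and 1.59%, beside 4.88% and 6.58%. AP-1 sites (TGANTCA) were found in 0 of 54 and 0 of 63, beside 4.43% and 5.35%, and the upper Wilson limits of these counts of 0 are 6.64% and 5.75%. At 54 and 63 peaks, the Wilson 95% intervals of all 4 motifs include the share of all peaks. Among peaks at any promoter the shares were 11.6% and 12% for PU.1, 2.58% and 2.79% for RUNX, 2.83% and 3.28% for GATA, and 2.83% and 3.12% for AP-1. All 4 shares lay closer to those of the clock loci there than over all peaks. Of the general promoter motifs, the GC box and the CCAAT box were common. The GC box (GGGCGG) stood in 46.3% and 38.1% of clock locus peaks, beside 31.8% and 26.2% of all peaks and 59.2% and 56.6% of peaks at any promoter. The CCAAT box stood in 42.6% and 34.9%, beside 21.4% and 19.8% of all peaks and 27.5% and 26.2% of promoter peaks. The ETS letters (CCGGAAG) stood in 9.26% and 7.94%, beside 7.9% and 6.42% of all peaks and 14.8% and 13.4% of promoter peaks. The NRF1 letters (GCGCATGCG) stood in 1 and 2 peaks, or 1.85% and 3.17%. Their background was 1.43% and 1.07% of all peaks and 2.9% and 2.63% of promoter peaks. All motifs were searched on both strands, and a match of letters is not a bound site.

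**Figure D5:**
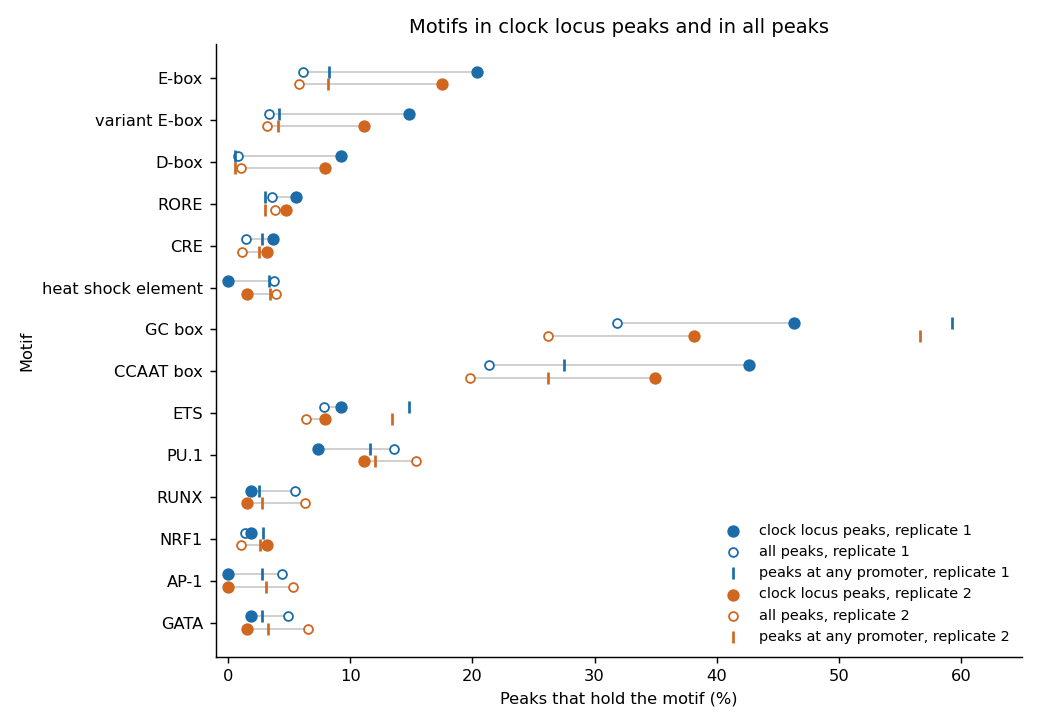
Percent of peaks that hold each of 14 motifs, for clock locus peaks (filled), all peaks (open) and peaks at any promoter (ticks) in replicate 1 (blue) and replicate 2 (orange). The filled points lie to the right of the open ones for the E-box (20.4% and 17.5% against 6.11% and 5.83%) and D-box, and to the left for PU.1, RUNX, AP-1 and GATA.

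Footprints, short stretches inside a peak that DNase I cuts less than its surroundings, showed which of these letters were protected. Clock locus peaks held 141 footprints in replicate 1 and 211 in replicate 2, or 2.98 ± 0.522 per peak (SD, n = 2), beside 2.38 and 2.66 per peak over all peaks. Own promoter peaks of the clock genes held 3.3 and 3.96 per peak, beside 2.89 and 3.08 over all promoter peaks. With the 10 peaks at promoters of other genes, the 33 promoter peaks of the loci held 2.85 and 3.73. In replicate 1, 11 clock locus peaks held no footprint, or 20.4%, beside 14.7% of all peaks. In replicate 2, 4 did, or 6.35%, beside 9.32%, so the libraries lay on opposite sides of the background. Of the footprints inside shared clock peaks, 108 of 141 in replicate 1 overlapped one of replicate 2 by at least 50% of the shorter, or 76.6%, beside 69.1% over all shared peaks. In replicate 2 it was 105 of 192, or 54.7%, beside 51%.

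An E-box counted as footprinted where at least 50% of its letters lay in a footprint. Of 15 E-boxes in clock locus peaks, 7 were footprinted in replicate 1 and 8 of 15 in replicate 2, or 46.7% and 53.3%, beside 32.1% and 36.6% of the E-boxes in all peaks. Among peaks at any promoter the shares were 34.9% and 36.3%. In each library, 15 E-boxes are too few to set apart from either background. The 5 that were footprinted in both libraries lay at the Per1 upstream promoter, 148 bases before the start, at the second Per1 promoter, 163 bases before the nearest start, in the Cry2 intron, in the Nr1d1 upstream flank about 8.2 kb from the start and 600 bases inside Nr1d2. The other E-box of the Per1 upstream promoter, 332 bases before the start, was footprinted in neither library. Coverage of the E-box in the Cry2 intron was 66.7% in each library, by footprints with different ends. In the Nr1d1 upstream flank and in Nr1d2 it was 50% in replicate 1 and 100% in replicate 2. The following lines give the footprints at the Per1 sites only, with the E-box in capitals, on the strand of the gene. At Per1 they are chr11:69095058-69095072 in replicate 1 and chr11:69095056-69095072 in replicate 2, and at the second promoter chr11:69098779-69098791 and chr11:69098776-69098795.
Per1 upstream promoter, replicate 1: ccccgccctCACGTG
Per1 upstream promoter, replicate 2: gcccccgccctCACGTG
Per1 second promoter, replicate 1: agtcCACGTGcag
Per1 second promoter, replicate 2: ccaagtcCACGTGcagggat
Each of these 4 footprints covered all letters of its E-box and reached into the bases 5' of it. At the upstream promoter both ended on the last base of the E-box, and at the second promoter both ran on past it. The footprints at the upstream promoter also held a GC box (CCGCCC on this strand), as did those over the Nr1d2 E-box.

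The E-box 47 bases upstream of the Cry1 start was footprinted in replicate 1 only, where 2 short footprints covered 50% and 33.3% of it. The E-box 1457 bases inside Nr1d1, in the intronic peak, was covered whole in replicate 1 and not in replicate 2. In the Dbp internal peak, 1 of the 2 E-boxes was footprinted, in replicate 2 only, and neither E-box of Bhlhe40 was in either library. The variant E-box 189 bases upstream of the Cry2 start was covered whole in both libraries, by footprints that also held a GC box. Of the 5 D-boxes, 1 was footprinted, in the intronic Nr1d1 peak in replicate 2, and 37.5% of its letters were covered in replicate 1. Over all peaks, 13.1% and 16.9% of D-boxes were footprinted. None of the 4 ROR elements was, in either library, beside 11.4% and 15% over all peaks. Of the 2 CREs, 1 was footprinted in replicate 1 and both in replicate 2, beside 82% and 87.3% over all peaks. These are too few sites to set apart from that background. The CRE at the Sphk2 and Rpl18 promoters in the Dbp locus was covered whole in both libraries, by a footprint of 23 bases with the same ends (chr7:45717986-45718008). A footprint does not name the protein, and one that also holds a GC box does not tell which motif is protected. E-boxes are bound by many factors of the same family besides the clock dimer.

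The RefSeq promoter windows, from 250 bases before to 50 after a start, covered 8 of the 10 genes with 12 windows, and Per2 and Bhlhe40 were not matched. An E-box stood in 2 of the 12 windows, of Per1 and Cry1, beside 7.15% of all 32851 windows. A D-box stood in 1 of the 12, of Per1, beside 1.66%, and an ROR element in 1, of Arntl, beside 6.45%. The Arntl match lay outside the peaks of the shorter lists, where no ROR element of Arntl was found.

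A wider list of 26 clock genes, which holds the other nuclear receptors, D-box factors, kinases and ubiquitin ligases of the loop, was counted in the same way. Of these, 22 had a promoter peak in both libraries, or 84.6%, beside 53.1% of all genes. The share was 83.7% among all genes at or above the median CpG content, so 84.6% lies near it. The CpG content of the wider list was not examined. Btrc, an F-box protein that marks PER proteins for degradation, had the strongest promoter, at rank 92 and 56. By the mean over both libraries of the percent of peaks ranked as high, it was followed by Gsk3b, a kinase of clock proteins, at 1143 and 614, and Wee1, a cell cycle kinase under clock control, at 1172 and 1386, although Nampt stood ahead of Wee1 in replicate 1 (1160) and Tef in replicate 2 (1355). Arntl2, a paralog of Arntl, had a promoter peak in replicate 2 only, at rank 47017. Npas2, a paralog of Clock, and Rorb had no promoter peak in either library. Npas2 had 1 and 2 peaks elsewhere in its locus, and Rorb had 0 in either.

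The labelled tissue was checked against marker genes. Promoter peaks in both libraries were found for 8 of 8 B cell genes, 4 of 8 T cell genes, 3 of 6 erythroid genes and 3 of 6 macrophage genes. Beside the 53.1% of all genes, the B cell list lay above the background and the other 3 lists, at 50% each, lay near it. Of 8 genes of other tissues, 0 had one in both. Replicate 2 had a promoter peak at 6 T cell, 5 erythroid and 4 macrophage genes, and replicate 1 at 4, 3 and 3. The longer list of replicate 2 held 89476 peaks and that of replicate 1 held 61285. The clock results stand beside this gain in replicate 2, and the part of cell makeup or depth in them was not tested.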

How the data were processed

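Members and gene and motif lists were chosen with earlier results of these data known. Per the readme deposited with each library, the authors derived peaks, footprints and the cut rate track from the alignments of that library on mm10, without pooling. Which aligner and callers were used is not given in the sources used here. Each library has 2 deposited peak lists with a signal value per peak, whose scale and depth are not given. The values are whole multiples of a step of 0.0106 in replicate 1 and 0.00513 in replicate 2. The deposited footprints carry an FDR (q-value) threshold of 0.01, and the deposited cut rate track gives an FDR (q-value) per run of bases, listing only those below 0.05. All clock locus peaks of the shorter lists held a run at or below 0.001, against 55 of 67 and 64 of 82 in the longer lists, so the shorter lists were used.

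Midpoints stood in for summits. Genes came from the basic GENCODE vM21 annotation, and sequence from GRCm38.p6. Promoters reached 1 kb up- and downstream of each start site, and CpG content was taken within 500 bases. Peaks were shared at 1 base of overlap. Values are given per library with backgrounds over all genes or peaks, and alternatives changed 1 choice at a time. All 10 clock genes are named. From the wider list the text names the 3 best ranked, those with a promoter peak in 1 library and those with none (1 gene that this rule selects is not reported here), and neighbours are named where the strongest peak of a locus lies at their start. Hes6, Vamp2, Car11, Sphk2, Rpl18, Nampt and Tef were named after their values were seen. Interval and motif functions were tested on simulated data. Scripts used Python 3.11.15, pandas 2.3.3, numpy 2.4.6, scipy 1.17.1 and samtools 1.23.1.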

Additional observations from a re-analysis of the deposited data

How the results depend on the processing

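Over 10 results with 45 alternatives, 42 stayed within 1.5 times the count, or within the spread or interval of the value, and 3 moved. For footprints per peak, leaving out either of the 2 replicates always stays within their SD, so those alternatives could not move. Without flanks, the clock loci held 25.5 peaks on average in place of 58.5. The strongest peak then lay within 1 kb of an own start in both libraries for 5 genes in place of 8. A midpoint just upstream of the start falls outside the locus in that setting. With the strongest 42454 peaks of each library, the share of replicate 2 peaks that recurred was 94.2% in place of 84.1%. Leaving out 1 replicate gave 54 to 63 locus peaks, 2.61 to 3.35 footprints per peak, 22 to 23 wider clock genes with a promoter peak, 8 to 9 genes with the strongest peak at the own start, and 10 clock genes with a promoter peak and 11 peaks with an E-box either way. Counting the variant E-box as well gave 16.5 peaks on average in place of 11. Leaving out peaks at promoters of other genes, an alternative chosen after seeing the data, gave 48.5 locus peaks and 11 peaks with an E-box. No paired analysis was possible because the libraries form 1 group. With no total depth given, absence of a peak from a list does not show closed chromatin. Of the peak counts of the 10 single loci, 59 of 70 alternatives stayed within 1.5 times and 11 moved. Most of these were without flanks, such as 6 in place of 12.5 peaks for Per1 and 1.5 in place of 7 for Bhlhe40.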
